A study of Mus musculus with 4 samples.

Results

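The Myc, Max and Mxd network was followed in 4 RNA libraries of a mouse acute myeloid leukaemia, 1 with the oncogene NRASG12V on and 3 with it off for 48 h, 72 h and 96 h. Its 9 members (Myc, Mycn, Max, Mxd1, Mxd3, Mxd4, Mxi1, Mnt and Mga) were taken by gene name from tables of 23235 genes, and all 9 were found. All 4 libraries came from leukaemia of the genotype NRASG12V/Mll-AF9, so the on library carries the same Mll-AF9 fusion as the off libraries. The leukaemia cells had been injected through the tail vein into SCID/Beige mice, hosts with inborn immune defects, which were then aged for 20 days. Doxycycline, which turns NRASG12V off in this model, was started at time 0 by injection and kept up through the drinking water. Each group holds 1 library, and no group received doxycycline with NRASG12V still on, so drug, elapsed time and the switch cannot be told apart. The harvested tissue was not given in the sources used here, nor was the number of mice behind each library or the promoter of the transgene.

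Myc and Mycn are transcription factors that bind DNA as dimers with Max and recruit coactivators that open chromatin, driving growth, metabolism and cell division. Max also pairs with the Mxd proteins (Mxd1, Mxd3, Mxd4 and Mxi1), with Mnt and with Mga, and these dimers bind the same E-box element but recruit Sin3 or Polycomb repressors. In blood formation Myc is a mark of dividing progenitors, and Mxd1 is known for its rise as myeloid cells mature.

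The E-box that Max dimers bind best is CACGTG, which is its own reverse complement. It was searched in RefSeq promoter windows of build GRCm38.p6, from 250 bases before to 50 after each gene start, where 8 of the 9 members had a window (3 of the 10 windows belong to Mxi1) and Myc was not matched. The motif was found in Max, Mnt and Mxd4, whose stretches are shown because the promoter windows of these network genes hold it. Capitals mark the E-box, with 25 bases on either side.
Max (chr12:76962221-76962276, minus strand): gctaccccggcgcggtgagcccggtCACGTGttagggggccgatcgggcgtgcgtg
Mnt (chr11:74830776-74830831, plus strand): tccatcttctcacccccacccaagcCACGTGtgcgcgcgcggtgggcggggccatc
Mxd4 (chr5:34187899-34187954, minus strand): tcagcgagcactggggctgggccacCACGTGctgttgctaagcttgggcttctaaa
The motif began 3 bases before the gene start in Max, 123 bases before it in Mnt and 219 bases before it in Mxd4. Of all 27025 genes with a window, 8.09% held it, and of all 32851 windows 7.15%. A match is a description of these letters and was not tested as a binding site.

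Values are FPKM, fragments per length of transcript and per library total as scaled in each table, so levels can be compared between genes. The authors scaled each table separately, and levels are given here on the scale of the 48 h table through the on column that all tables share. Changes at 1 time are log2((off FPKM + 1)/(on FPKM + 1)) within the table of that time, a scale that makes changes of low genes look smaller. The total depth is unknown. Low values were taken to step with whole reads. Relative to the on library, each FPKM then stood for 1.15 times as many reads at 48 h. The factor was 1.04 at 72 h and 1.19 at 96 h. The ratio behind it was shared, within 0.2%, by 259 of 1948 genes below 0.3 FPKM at 48 h. At 72 h these were 150 of 1899, and at 96 h 78 of 1967. The off libraries were also pooled as 3 samples of the off state and compared with the on library by limma. Each SD given with a mean change is over these 3 off libraries and holds no error of the on library. In that test any difference between times enters the spread, and the single on library has to be assumed as variable as the off libraries. No label states that separate animals were used, so the p-values cover only how far these libraries differ, which may be technical. Mouse Nras had 24.5 FPKM on and 17.1, 18.0 and 19.4 FPKM off (limma, Benjamini-Hochberg adjusted p = 0.128). Reads of the NRASG12V transgene need not all be assigned to the mouse gene, so it is a weak check of the labels. All 10 genes shared by leukocytes were detected, and their summed level was 3883 FPKM on and 2756, 2224 and 1675 FPKM off.

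Mxd1 rose, and Myc was lower in each off library than in the on library without passing the test. Mxd1 went from the third most abundant member in the on library to the most abundant in each off library, and Myc from the second to the fourth. Max, the shared partner, was at most 1.18 times its on level. Of the 8 members that reached 1 FPKM in some library, 1 passed the limma test upwards, Mxd1, and 0 downwards. More members passed when the 48 h or the 96 h library was left out, where more of all genes passed too. Over all 12015 genes tested with all libraries kept, 11.8% passed upwards and 15.1% downwards, which is 1415 and 1814 genes. With the median change of expressed genes set to 0 the balance turned, to 1671 upwards and 1308 downwards. With unadjusted p-values under 0.05, Myc would be counted too (limma, unadjusted p = 0.0150). In all 9 members the on library lay outside the range of the 3 off libraries, with 6 members higher off (33.5% of all genes tested) and 3 lower off (45.6% of all genes tested). The same on library stands in every comparison.

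**Figure D1:**
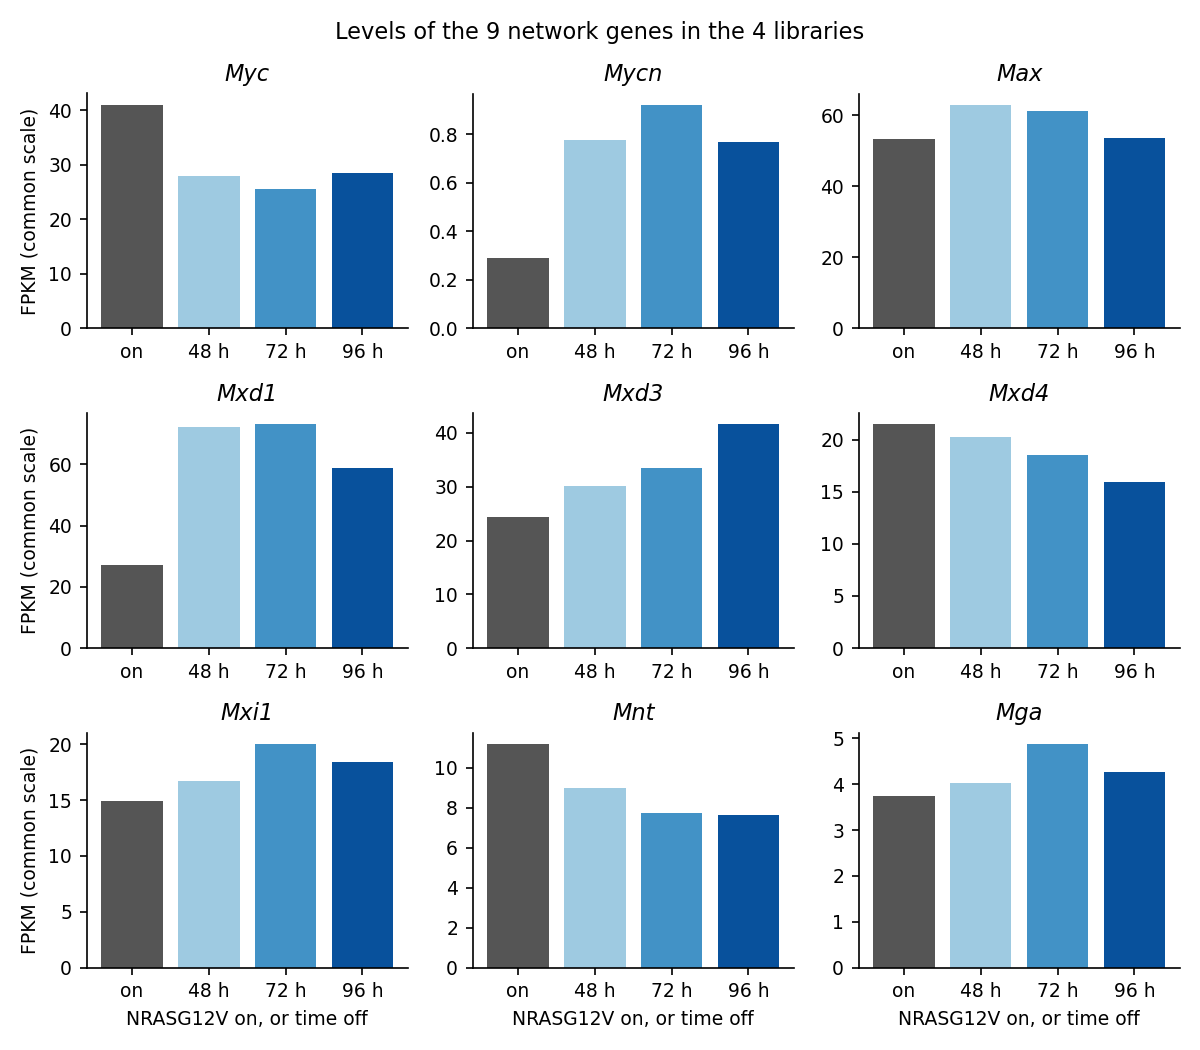
FPKM on the common scale (y axis, from 0, a separate range for each gene) of the 9 members in the on library and the 3 off libraries (x axis), 1 bar per library and no error bars because each group holds 1 library. Mxd1 stands at 27.0 FPKM on and at 58.9 FPKM or more off, while Myc stands at 41.1 FPKM on and at 28.6 FPKM or less off.

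Myc, the activator that gives the network its name, had 41.1 FPKM with NRASG12V on, then 28.0 FPKM at 48 h, 25.7 FPKM at 72 h and 28.6 FPKM at 96 h. The 3 off libraries lay close together, the highest 1.11 times the lowest, and all were below the on library. The log2 changes were -0.54, -0.66 and -0.51, short of 2-fold at each time. Over the off libraries the mean change was -0.57 ± 0.08 (SD, n = 3), which just missed the limma threshold (Benjamini-Hochberg adjusted p = 0.0537). Across the alternatives run, that adjusted p ranged from 0.00285 to 0.302. Its change was -0.58 without the 48 h library, -0.60 without the 96 h library and -0.52 without the 72 h library. Whether Myc passed varied between the fits. The lowest adjusted p came from a limma fit with a slope over time and all 3 off libraries, so the call rests on the fit used.

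Mycn, the relative of Myc used in embryonic and neural tissue and in early blood progenitors, was nearly silent: 0.290 FPKM on and 0.778, 0.923 and 0.770 FPKM off. It was the least abundant member in every library and never reached 1 FPKM, so it was left out of the main limma test. Without a pseudocount the ratio of off to on was 2.69, 3.19 and 2.66, and with 1 FPKM added the log2 changes shrank to 0.46, 0.56 and 0.44. The smallest whole read numbers that give these ratios within 0.05 read are 13 on and 40, 43 and 41 off. They assume that reads were counted whole and that the gene has 1 length in all libraries. Multiples of these numbers would give the ratios too. Taken as counts, 13 has an exact 95% Poisson interval of 6.92 to 22.2 and 40 one of 28.6 to 54.5, and such intervals cover counting error only. With no filter on low values, limma gave Mycn a mean log2 change of 0.50 ± 0.07 (SD, n = 3) and a Benjamini-Hochberg adjusted p of 0.0515. The summed level of Myc and Mycn was almost all Myc in each library.

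Max, the shared partner, was at 53.3 FPKM on and at 63.0, 61.4 and 53.5 FPKM off. It was somewhat higher at 48 h and 72 h, with log2 changes of 0.24 and 0.20, and nearly level with the on library at 96 h, at 0.01. The mean change of 0.15 ± 0.12 (SD, n = 3) did not pass (limma, Benjamini-Hochberg adjusted p = 0.608).

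Mxd1, the repressor tied to myeloid maturation, was at 27.0 FPKM on and at 72.2, 73.0 and 58.9 FPKM off. The 48 h and 72 h libraries were alike, the 96 h library was lower, and all lay well above the on library. Within the tables Mxd1 was 2.67, 2.70 and 2.18 times as high off as on. Its log2 changes were 1.39, 1.40 and 1.09. Among the 8 members reaching 1 FPKM, and with 1 FPKM added, 1 member (Mxd1) was at least 2-fold higher and 0 lower at each time; Mycn, with the ratios given above, lay below that filter. With 5 FPKM added in place of 1 FPKM, the 96 h change was 0.99 and 0 members reached 2-fold there. At 48 h, 5.0% of all genes reached that size upwards and 4.85% downwards, at 72 h 6.61% and 5.76%, and at 96 h 7.39% and 8.16%. The mean change of 1.29 ± 0.17 (SD, n = 3) passed limma (Benjamini-Hochberg adjusted p = 0.00452). It also passed under each of the 10 alternative fits (limma, Benjamini-Hochberg adjusted p at most 0.0255). All of these fits reuse the lone on library and the same off libraries, so they are no independent check.

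Mxd3, the family member usually found in dividing cells in S phase, was at 24.3 FPKM on and at 30.2, 33.4 and 41.6 FPKM off. Each later off library was higher than that before it, with log2 changes of 0.30, 0.44 and 0.75. The mean of 0.50 ± 0.23 (SD, n = 3) did not pass (limma, Benjamini-Hochberg adjusted p = 0.129). Without the 48 h library it passed, with a mean of 0.60 and an adjusted p of 0.0387. Exons of Mxd3 overlap those of Prelid1 on the other strand in GENCODE vM21, and Prelid1 went from 300.5 FPKM on to 145, 128 and 125 FPKM off, the opposite direction. The strand setting of the counting is not given in the sources used here, so reads in the overlap cannot be assigned with certainty. The same holds for Mxd4 with Gm42846 and for Mxi1 with Gm10197, genes on the other strand for which no level was listed.

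Mxd4 showed the reverse order. It was at 21.5 FPKM on and at 20.2, 18.5 and 16.0 FPKM off, with log2 changes of -0.08, -0.20 and -0.40. The 48 h value sat so near the on library that its direction flipped, to 0.06, when the median change of all expressed genes was set to 0. The mean change of -0.23 ± 0.16 (SD, n = 3) did not pass (limma, Benjamini-Hochberg adjusted p = 0.411).

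Mxi1, also called Mxd2, was at 14.9 FPKM on and at 16.7, 20.0 and 18.4 FPKM off. All 3 off libraries were above the on library, the 72 h library most, with log2 changes of 0.15, 0.40 and 0.28. The mean of 0.28 ± 0.12 (SD, n = 3) did not pass (limma, Benjamini-Hochberg adjusted p = 0.301).

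Mnt, a widely expressed repressor that competes with Myc for Max, was at 11.2 FPKM on and at 8.98, 7.74 and 7.66 FPKM off. The off libraries were all lower, with log2 changes of -0.29, -0.48 and -0.49. The mean of -0.42 ± 0.11 (SD, n = 3) did not pass (limma, Benjamini-Hochberg adjusted p = 0.128). Mga, a very large protein that joins Max to a Polycomb complex, was at 3.75 FPKM on and at 4.03, 4.87 and 4.26 FPKM off. Its mean change of 0.18 ± 0.11 (SD, n = 3) was the second smallest in size among the 8 members tested (limma, Benjamini-Hochberg adjusted p = 0.494).

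**Figure D2:**
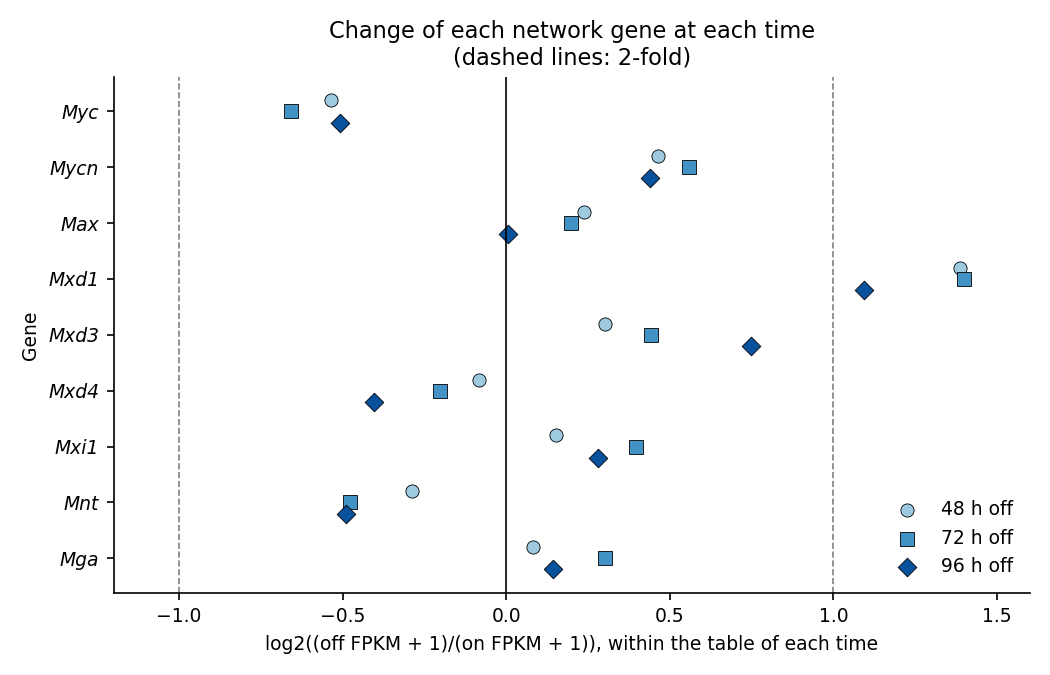
Log2 change of each member (rows) at 48 h, 72 h and 96 h off against the on library, within the table of each time (x axis, log2((off FPKM + 1)/(on FPKM + 1))), with dashed lines at 2-fold. The 3 points of Mxd1 lie beyond the upper dashed line at 1.09 to 1.40, those of Myc lie between -0.66 and -0.51, and those of the other members lie within 2-fold.

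Over the off libraries the order of levels was Mxd1 (68.1 ± 7.9 FPKM), Max (59.3 ± 5.1 FPKM), Mxd3 (35.1 ± 5.9 FPKM), Myc (27.4 ± 1.5 FPKM), Mxi1 (18.4 ± 1.6 FPKM), Mxd4 (18.2 ± 2.1 FPKM), Mnt (8.13 ± 0.74 FPKM), Mga (4.39 ± 0.44 FPKM) and Mycn (0.824 ± 0.086 FPKM; SD over 3 times in each case). Some neighbours overlapped in range. The lowest Mxd1 value, 58.9 FPKM, lay below the highest Max value, 63.0 FPKM, although Mxd1 was above Max within each off library. Mxi1 and Mxd4 also overlapped, and they changed places between 48 h and the later times. The lowest Mxd3 value, 30.2 FPKM, was above the highest Myc value, 28.6 FPKM.

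Ratios within a library do not depend on how the tables were scaled. The level of Mxd1 was 0.658 times that of Myc in the on library and 2.58 times at 48 h, 2.85 times at 72 h and 2.06 times at 96 h. Mxd1 against Max went from 0.507 to 1.15, 1.19 and 1.10, and Myc against Max from 0.770 to 0.444, 0.418 and 0.533. Myc and Mycn together made up 20.9% of the summed FPKM of the 9 members on and 11.8%, 10.8% and 12.8% off. The mean difference, off minus on, was -9.15 ± 0.97 percentage points (SD over the 3 off libraries, with no spread of the on library). The 4 Mxd genes made up 44.5% on and 57.1%, 59.0% and 58.7% off. Mxd1 alone went from 13.7% to 29.6%, 29.8% and 25.7%, at 48 h and 72 h a larger gain than that of the 4 genes together. Mxd3, Mxd4 and Mxi1 added up to 60.7 FPKM on and to 67.1, 71.9 and 75.9 FPKM off. These shares count transcripts and say nothing of protein.

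**Figure D3:**
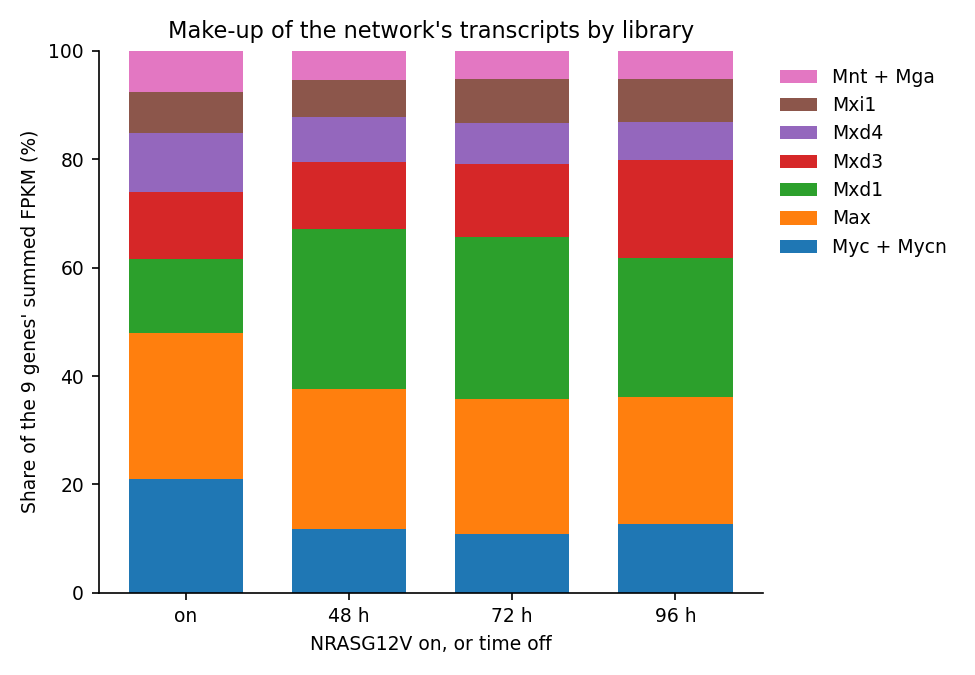
Share of the 9 members' summed FPKM (y axis, percent) taken by each member or pair in the on library and the 3 off libraries (x axis), 1 stacked bar per library. The share of Myc with Mycn goes from 20.9% on to between 10.8% and 12.8% off, and that of Mxd1 from 13.7% on to between 25.7% and 29.8% off.

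On the log2(FPKM + 1) scale, Mxd1 was the only member whose level spanned at least 2-fold over the 4 libraries. Among 8964 other genes reaching 5 FPKM, the profiles nearest to it over these 4 libraries were those of Acrbp, a protein known from the sperm acrosome (distance 0.07 on the log2 scale), the cation channel Trpm2 (0.07) and the unnamed gene model Gm14492 (0.12). Trpm2 was at 5.29 FPKM on and at 15.9, 16.8 and 13.2 FPKM off. Acrbp was at 1.49 FPKM on and at 5.52, 5.27 and 4.42 FPKM off. With 4 points, such likeness is a description.

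Some markers of maturing neutrophils also rose. Of 10 later neutrophil markers, 5 rose, 0 fell and 5 did not pass limma (Benjamini-Hochberg), with a median log2 change of 1.28 beside -0.08 for all genes tested. Over all genes tested, 11.8% passed upwards and 15.1% downwards. Without the 96 h library more of these markers rose, and more of all genes passed upwards too. The chemokine receptor Cxcr2 was at 9.89 FPKM on and at 38.5, 35.5 and 21.6 FPKM off, lowest at 96 h among the off libraries as Mxd1 was. The collagenase Mmp8 rose by 2.52 ± 0.43, Retnlg by 2.25 ± 0.41, the gelatinase Mmp9 by 1.76 ± 0.40 and Cxcr2 by 1.55 ± 0.43 on the log2 scale (SD, n = 3; limma, Benjamini-Hochberg adjusted p from 0.00192 to 0.00918). The 10 markers summed to 25643 FPKM on and to 45435, 40937 and 29278 FPKM off, and none was at 0. Among the markers that did not pass, Camp (2455 FPKM on, 2277 FPKM at 96 h) and Ngp (3819 FPKM on, 3223 FPKM at 96 h) were below the on library at 96 h, where Mxd1 was above it. The part of the neutrophil markers in the rise of Mxd1 was not tested. In bulk samples, more cells of a type and more RNA per cell cannot be told apart.

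Erythroid markers moved too, in another order. All 9 measured markers rose, with a median of 2.29, and they summed to 1370 FPKM on and to 5129 FPKM at 48 h, 7771 FPKM at 72 h and 10945 FPKM at 96 h. Hbb-b1, an adult beta globin, rose by 2.74 ± 0.65, the transcription factor Klf1 by 2.59 ± 0.28, the carbonic anhydrase Car1 by 2.57 ± 0.47 and the spectrin gene Spna1 by 2.57 ± 0.45 (SD, n = 3; limma, Benjamini-Hochberg adjusted p from 0.00104 to 0.00414). Their sum, most of it Hbb-b1 at 96 h (8028 FPKM), was higher in each later library, as the level of Mxd3 was. Slc4a1 (1110 FPKM at 72 h, 1046 FPKM at 96 h) and Spna1 (149 and 137 FPKM) went down between these times. The other measured markers went up. The part of the erythroid sum in the values of Mxd3, Mxi1 and Myc was not tested. Of 10 cell cycle markers, Mki67 rose by 1.18 ± 0.33 (adjusted p = 0.0170), 0 fell and 9 did not pass, and the list's median was -0.00088 at 48 h, 0.27 at 72 h and 0.40 at 96 h. Without the 48 h library 3 of them rose. They summed to 1131 FPKM on and to 1222, 1573 and 1718 FPKM off. Among all genes tested, 11.8% passed upwards and 15.1% downwards.

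Markers of other cell types were counted as well, beside 15.1% downwards and 11.8% upwards over all genes tested. Of 9 monocyte and macrophage markers, 3 fell and 0 rose, with a median of -0.39: the scavenger receptor Msr1 (-2.45 ± 0.44), the monocyte marker Ly6c2 (-1.95 ± 0.35) and Cd68 (-1.04 ± 0.31; SD, n = 3; limma, Benjamini-Hochberg adjusted p from 0.00193 to 0.0203). The 9 markers summed to 915 FPKM on and to 584, 483 and 425 FPKM off. Ly6c2 alone was at 481 FPKM on and at 159, 124 and 96.6 FPKM off. Among the 6 that did not pass, C1qa (0.50), Mrc1 (0.26) and C1qb (0.10) had positive mean changes. Those of Ccr2 (-0.86), Csf1r (-0.39) and Emr1 (-0.05) were negative. Of the 10 leukocyte genes 4 fell and 0 rose, with a median of -0.85: Coro1a (-1.21 ± 0.37), Sfpi1 (-1.10 ± 0.37), Laptm5 (-1.05 ± 0.31) and Cd53 (-0.97 ± 0.23; limma, adjusted p from 0.0166 to 0.0250). Without the 48 h library 7 fell. Among 9 lymphoid markers the defining T cell gene Cd3e stood at 0.147 FPKM or less in every library. Of the 5 that reached 1 FPKM, 2 rose (Cd3d by 1.28 ± 0.42 and Cd8a by 0.59 ± 0.12) and 2 fell (Nkg7, -1.45 ± 0.19, and Cd79b, -1.43 ± 0.07), with adjusted p from 0.00198 to 0.0409. Cd8a did not pass without the 48 h library (0.0545) or without the 96 h library (0.0509). The lymphoid sum was 77.3 FPKM on and 51.3, 45.8 and 41.7 FPKM off. Their part in the members' values was not tested.

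Of the other network and E-box factors, Usf1 passed the test, beside 15.1% downwards and 11.8% upwards over all genes tested. Usf1, an E-box factor outside the Max network, fell from 34.3 FPKM to 21.7, 18.3 and 17.3 FPKM, a mean log2 change of -0.82 ± 0.16 (limma, Benjamini-Hochberg adjusted p = 0.0201). Without the 72 h library its change was -0.79 and did not pass (adjusted p = 0.0751). Its relative Usf2 was at 78.0 FPKM on and 54.7, 52.7 and 50.6 FPKM off, and did not pass (adjusted p = 0.0595). Mycl1, the third Myc gene, was at 9.75 FPKM on and 13.2, 11.2 and 11.7 FPKM off (adjusted p = 0.303), far above Mycn in each library. Mlx, the Max-like partner, was at 20.7 FPKM on and 19.5, 18.2 and 17.6 FPKM off (adjusted p = 0.543). The glucose-sensing factor Mlxip was at 12.3 FPKM on and 9.38, 9.92 and 8.08 FPKM off (adjusted p = 0.152). Mlxipl was at 0.141 FPKM or less and was listed at 0 at 96 h. In all, 1 of the 5 that could be tested fell and 0 rose, with a median of -0.40; 2 fell without the 48 h library and 0 without the 72 h library.

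Cofactors of either arm were counted too, where 11.8% of all genes tested passed upwards and 15.1% downwards. A difference of these lists of 10 to 12 genes from those shares was not tested. Of 12 coactivators that Myc recruits, 0 passed limma (Benjamini-Hochberg), and 1 had an unadjusted p under 0.05; without the 96 h library 2 fell. The median was -0.04, and the largest mean changes were those of the scaffold Wdr5 (-0.51 ± 0.12, adjusted p = 0.0835) and the helicase Ruvbl2 (-0.42 ± 0.17, adjusted p = 0.158). Of 12 Sin3 and Ncor corepressors that Mxd proteins and Mnt use, 2 fell, 0 rose and 10 did not pass, with a median of -0.12. Sin3b, a scaffold that binds Mxd proteins directly, fell from 76.0 FPKM to 38.2, 39.0 and 40.2 FPKM, a change of -0.94 ± 0.04 (SD, n = 3; limma, Benjamini-Hochberg adjusted p = 0.00946). Its relative Sin3a was at 21.3 FPKM on and 18.9, 20.1 and 20.0 FPKM off (adjusted p = 0.675). Of 10 Polycomb partners of Mga, Tfdp2 rose by 1.58 ± 0.49 (adjusted p = 0.0118, and 0.0707 without the 96 h library), 0 fell and 9 did not pass, with a median of -0.04. Tfdp2, a dimer partner of E2F factors, went from 10.8 FPKM to 23.1, 44.9 and 39.1 FPKM.

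Among 24 regulators of Myc protein stability and activity, 3 fell, 1 rose and 20 did not pass, with a median of -0.14. Beside this, 15.1% of all genes tested passed downwards and 11.8% upwards. Without the 48 h library 5 fell, and without the 72 h library 2 fell. The kinase Pim3, of a family that can phosphorylate and stabilise Myc, fell from 22.1 FPKM to 4.57, 4.39 and 4.41 FPKM, a change of -2.08 ± 0.03 (SD, n = 3; limma, Benjamini-Hochberg adjusted p = 0.000674). The other kinases of that family did not pass: Pim1 was at 83.1 FPKM on and 76.4, 101 and 84.6 FPKM off (adjusted p = 0.852), and Pim2 at 2.44 FPKM on and 3.33, 3.87 and 4.04 FPKM off (adjusted p = 0.0916). Bin1, a Myc-interacting protein, fell by 1.26 ± 0.34 (adjusted p = 0.0113). Zbtb17 (Miz1), through which Myc represses genes, fell by 0.68 ± 0.03 (adjusted p = 0.0254). Without the 72 h library its change was -0.67 but did not pass (adjusted p = 0.117). The ubiquitin ligase subunit Btrc rose by 1.19 ± 0.35 (adjusted p = 0.0148). Fbxw7, the ligase subunit best known for marking Myc for destruction, was at 6.60 FPKM on and 8.06, 9.31 and 8.17 FPKM off (adjusted p = 0.224).

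Genes that textbooks give as activated by Myc went both ways. Of 29 tested, 5 fell, 2 rose and 22 did not pass, with a median of -0.23. The shares over all genes tested were 15.1% downwards and 11.8% upwards, and a difference of the list from them was not tested. With the median change of all expressed genes set to 0, 3 fell and 3 rose. The counts were 5 down and 4 up without the 48 h library, 3 down and 2 up without the 72 h library, and 7 down and 3 up without the 96 h library. Their median was -0.37 at 48 h, -0.28 at 72 h and -0.0094 at 96 h, beside -0.13, -0.06 and -0.05 for all genes tested. The cyclin Ccnd2 fell from 43.4 FPKM to 17.7, 15.9 and 14.0 FPKM, a change of -1.40 ± 0.16 (SD, n = 3; limma, Benjamini-Hochberg adjusted p = 0.00272). The DNA repair enzyme Apex1 fell by 1.14 ± 0.35 (adjusted p = 0.0164). Lactate dehydrogenase Ldha fell by 1.03 ± 0.08 (adjusted p = 0.00995). Ornithine decarboxylase Odc1 rose by 0.97 ± 0.22 (adjusted p = 0.0195). Of 10 genes given as repressed by Myc, 4 fell, 2 rose and 4 did not pass, with a median of -0.07; without the 72 h library 1 fell and 2 rose. The myeloid factor Cebpa fell by 1.85 ± 0.41 (adjusted p = 0.00404). The cell cycle inhibitor Cdkn1a (p21) fell by 0.91 ± 0.10 (adjusted p = 0.0122, and 0.0621 without the 72 h library). The stress gene Gadd45a rose by 1.65 ± 0.12 (adjusted p = 0.00189) and the inhibitor Cdkn1b (p27) by 0.95 ± 0.15 (adjusted p = 0.0123). With no filter on low values, 17 of the 47 listed genes that had passed, markers included, no longer did, with limma adjusted p from 0.0508 to 0.0776. Among those named were Usf1, Tfdp2, Btrc, Odc1, Apex1, Mki67, Cd68, Cd3d, Cd8a, Coro1a, Sfpi1, Laptm5 and Cd53.

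**Figure D4:**
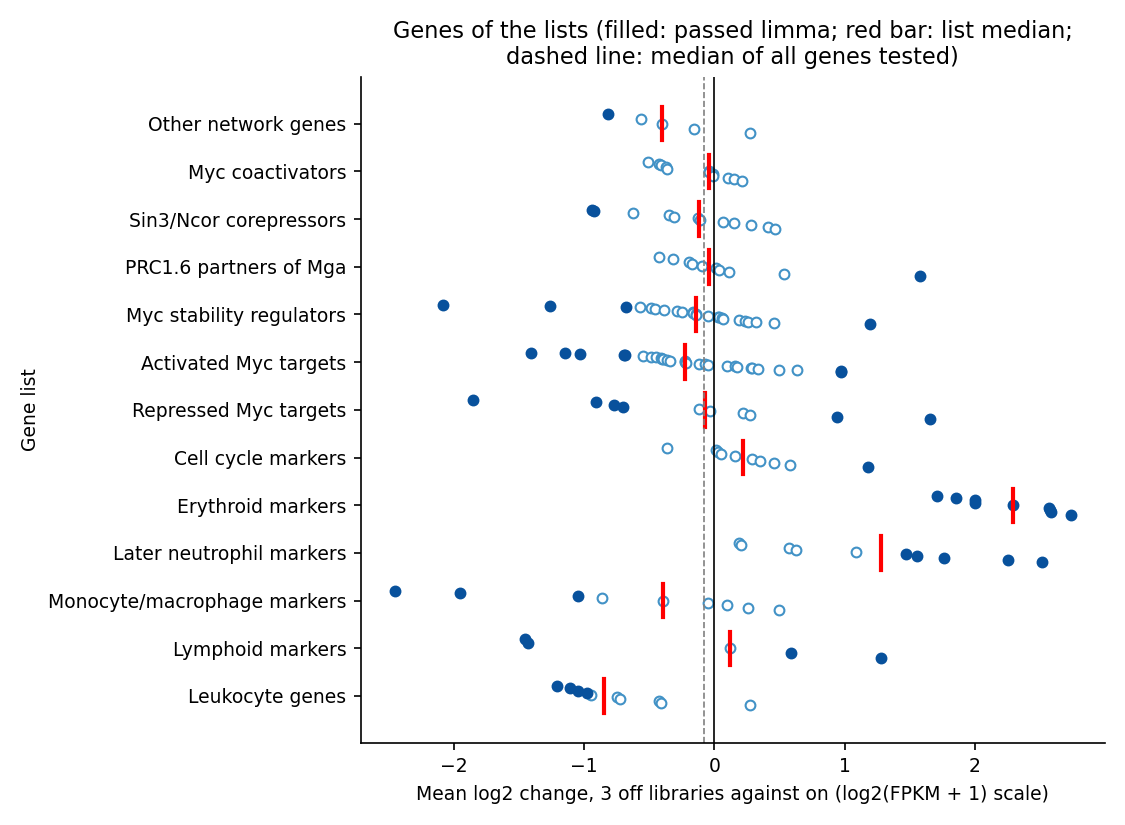
Mean log2 change of each gene over the 3 off libraries against the on library (x axis, log2(FPKM + 1) scale), 1 row per gene list, with filled points for genes that passed limma, a red bar at each list's median and a dashed line at the median of all genes tested, -0.08. The lists of network cofactors and Myc targets have medians between -0.23 and -0.04, and the erythroid and later neutrophil markers have medians of 2.29 and 1.28.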

How the data were processed

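The members and gene lists were chosen with earlier results of these data known. The authors deposited FPKM values in 4 tables; per the submitters' processing notes, TopHat2 2.0.4 and Cuffdiff were used with mm9. The strand setting was not given in the sources used here, nor was the annotation. Each table pairs the on library with 1 off library or a combined off value. The on columns differ by 1 factor per table (0.949 for 72 h, 0.947 for 96 h, against 48 h), within 0.1% for at least 99.9% of values in these tables. Off columns were divided by it. Genes reaching 1 FPKM in a library (12015) were tested in R 4.3.3 on log2(FPKM + 1) with limma 3.58.1 and statmod 1.5.0. The fit used eBayes with trend and robust settings and Benjamini-Hochberg at 0.05. It was also run on simulated data in which the on library varied like the off libraries, so that assumption was not checked. Reads per FPKM came from the most frequent ratio among genes below 0.3 FPKM. Of 162 list entries 161 matched (Spi1 as Sfpi1). Listed genes were named by a rule: the up to 4 called with the largest change, else the 2 largest; the other network genes were given whole. Pim1, Pim2, Sin3a, Fbxw7, Camp and Ngp were added after their values were seen. Alternatives changed the pseudocount, filter, centring, variance settings, libraries and a time slope. Fits without the 48 h or the 96 h library called more genes in all, and that without the 72 h library fewer. List counts from these fits are therefore not to be set against the shares of the main fit. Some listed genes counted in the lists are not reported here by name.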

Additional observations from a re-analysis of the deposited data

How the results depend on the processing

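Of the counts and changes recomputed, the rise of Mxd1 passed in every alternative fit run, each with the same lone on library. The number of members called by limma ranged from 1 to 3 when an off library was left out, and was 4 with a time slope as covariate, against 1. That covariate takes the trend between times out of the spread. It raised the genes called from 3229 to 6041 of the 12015 tested. With it, Myc (-0.57, adjusted p = 0.00285), Mxd3 (0.50, adjusted p = 0.00526) and Mnt (-0.42, adjusted p = 0.0272) passed (limma, Benjamini-Hochberg). Fits without the 48 h or the 96 h library also called more genes in all. More members than in the main fit were called only where more of all genes were called. Whether members passed more often than other genes in these fits was not tested. Left-out libraries moved the change of Myc from -0.60 to -0.52 and of Mxd3 from 0.37 to 0.60. At 96 h, 0 members differed 2-fold with a pseudocount of 5 FPKM, against 1. Setting the median change to 0, a shift of 0.14 at 48 h, reversed the change of Mxd4 at 48 h, to 0.059. Off minus on, the share of Myc was -15.5 percentage points when set against the Mxd genes only. The cause was not tested. Without a low-value filter, 17 of 47 listed genes called no longer passed. No paired analysis was possible because each group holds 1 library. With a pseudocount of 0.1 or 5 FPKM the 48 h change of Mycn was 1.17 or 0.13. The depth is unknown.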
